A study of Homo sapiens with 40 samples.

Results

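The genes described here are 10 interferon-induced effector genes: MX1, MX2, IFI6, IFI27, IFI44, IFI44L, RSAD2, CMPK2, EPSTI1 and BST2. They were chosen by name, and all 10 were found among the 60664 genes of the deposited count table. RNA was sequenced from 786-0 cells, a human clear cell renal cell carcinoma line, that were either SETD2 wild type (WT) or SETD2 knockout (KO). SETD2 encodes a methyltransferase of histone H3 lysine 36. Cells were sampled untreated at day 0 (control), or after treatment with DAC at 100 nM, BMN at 10 nM, or both together (the combination), at days 5, 16 and 26. DAC is decitabine, a nucleoside that traps DNA methyltransferases, and BMN (BMN673) is talazoparib, an inhibitor of poly(ADP-ribose) polymerase. This gives 20 groups, each with 2 libraries. No untreated group after day 0 was analysed here, so treatment and time in culture cannot be told apart in any comparison with control. How many clones the KO line is and which part of SETD2 is altered are not given in the sources used here. The labels do not say that the 2 libraries of a group came from separate cultures, so p-values measure the spread between these libraries, which may be technical.

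Each library held 17833960 to 22631101 counts, with a median of 19410322. SETD2 RNA was at 149 and 129.6 CPM (counts scaled to the size of the library) in the 2 WT control libraries and at 141 and 113 CPM in the 2 KO control libraries. These ranges overlap, so the RNA level does not check the genotype label. The tested carcinoma markers fitted the label of the line: 12 of 12 genes, among them PAX8, VIM and EPAS1, averaged at least 1 CPM in every arm. Of 12 leukocyte markers, none averaged 1 CPM in control or BMN libraries and 1 did in DAC and combination libraries, where their summed level was 0.968 to 5.81 CPM. Of these leukocyte markers ITGAM and CD68 reached the highest levels in any library, 3.71 and 2.40 CPM. PTPRC and MS4A1 reached at most 0.279 CPM and 0 CPM. Summed fibroblast markers were at 18.6 to 21.2 CPM in control libraries and at 381 to 2066 CPM in DAC and combination libraries, where COL1A1 reached 2010 CPM. Of these 6 markers, 3 averaged at least 1 CPM in control and 4 in DAC and combination libraries. The highest levels of the others in any library were 84.6 CPM for PDGFRB, 22.8 for LUM, 5.84 for DCN, 3.36 for FAP and 0.16 for PDGFRA. Endothelial markers summed to 0.432 to 0.857 CPM in control and to 0.408 to 5.08 CPM in DAC and combination libraries. These marker sums move with the DAC arms, as the genes below do, and their part in the results was not tested.

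Type I and type III interferons bind receptors whose kinases set off signalling to the nucleus. There the interferon-stimulated response element, a short sequence near the start of target genes, is bound and the genes are switched on. The products of those genes act against viruses at different steps. MX1 and MX2 are dynamin-like GTPases that interfere with incoming viral nucleocapsids. RSAD2 encodes viperin, a radical SAM enzyme that makes a chain-terminating nucleotide, and CMPK2 is a nucleotide kinase encoded beside it. BST2 encodes tetherin, which holds budding virus at the cell surface. IFI6 and IFI27 are small hydrophobic proteins of one family, IFI44 and IFI44L are related proteins encoded side by side, and EPSTI1 was first described as a gene induced in epithelial cells by stromal contact.

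The promoter sequences of these genes are shown because the genes moved together with DAC, as given below, and because genes of this kind are known for that element. RefSeq windows on build GRCh38.p14, from 250 bases before to 50 bases after each annotated start, were found for 9 of the 10 genes, 16 windows in all. The core of that element, GAAA and GAAA with any 2 bases (NN) between them, searched on both strands, was in the windows of 8 of these 9 genes, and in 11 of the 16 windows. Among all 35116 windows of the same length 3.57% held it, and 4.38% of 27305 genes did. The stretches below are written 5′ to 3′ on the strand of the gene, and the capitals mark the core or its reverse complement.
MX1: agcagaaatGAAACCGAAActgaattgt
IFI6: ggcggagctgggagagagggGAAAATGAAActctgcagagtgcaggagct
IFI27: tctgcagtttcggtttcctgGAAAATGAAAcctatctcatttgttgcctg
IFI44: cacactgagTTTCAGTTTCctttctctg
IFI44L: cctagtgagGAAAAAGAAAgttagtggc
RSAD2: tgtttcaacTTTCAGTTTCacatgtgga
EPSTI1: tgattctgaGAAACCGAAActcagctgt
BST2: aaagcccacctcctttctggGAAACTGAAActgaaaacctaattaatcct
In MX1 the stretch is chr21:41420560-41420587 on the plus strand, in an exon, with the core 12 bases after an annotated start. In EPSTI1 it is chr13:42992273-42992300 on the minus strand, before the first exon. The MX1 and EPSTI1 cores carry the same letters. The IFI6 stretch, chr1:27672319-27672368 on the minus strand, lies before the first exon, and the window holds 3 cores. The BST2 stretch, chr19:17405731-17405780 on the minus strand, also lies before the first exon, and its window holds 2 overlapping cores. In IFI27 the stretch, chr14:94110621-94110670 on the plus strand, is intronic in the longest annotated gene model, and 2 cores stand on opposite strands there. The IFI44 stretch is chr1:78649762-78649789, before the first exon, and the IFI44L stretch is chr1:78620366-78620393, in an exon, both on the plus strand. The RSAD2 stretch is chr2:6877623-6877650 on the plus strand, in an exon, in the second of its 2 windows.

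RSAD2 and CMPK2 are encoded on opposite strands of chromosome 2 and overlap by 1079 bases, so part of the sequence around their starts is shared. There the same core with a gap of any single base was found; it was searched after the first core had been seen, and it overlaps some matches of it. It was in the windows of 4 of the 9 genes, against 3.87% of all genes. The first RSAD2 window held 4 copies, and a CMPK2 window on the other strand held 2 of them. A stretch with 1 of these 2 shared copies, in an exon at chr2:6865816-6865842 and written on the plus strand, is shown because it lies in windows of both genes.
RSAD2 and CMPK2: cgttgcgggGAAACGAAAgccggaggc
DAC acts on CG methylation, so CG dinucleotides were counted in the windows. Their number per window ranged from 0 in both IFI44 windows and the IFI44L window to 45 in the first RSAD2 window, against a median of 14 over all windows (quartiles 4 and 28). Of the 9 genes, 4 had a window with at least 10 CG dinucleotides, a number below the median over all windows. The gamma-activated sequence, TTC and GAA with any bases (NNN) between them, was also searched. Windows of 4 of the 9 genes held it, against 9.38% of all genes. In each of these 4 genes a match shares letters with a core of the first element, so this count is not separate from that one. Only BST2 had a further match clear of any core. A match is a description of letters in a window, not a measured binding site.

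Before treatment these genes were at low levels, except BST2. Divided by the merged exon length in kilobases, which understates genes with long merged models, BST2 stood first in WT control cells at 82.9 CPM per kb, followed by IFI6 at 10.3, IFI44 at 3.61 and IFI27 at 2.28. The other 6 genes were between 0.0472 and 0.193 CPM per kb. In KO control cells the order began with BST2 at 116 CPM per kb, IFI6 at 10.03 and IFI44 at 1.06. On day 26 of DAC, IFI6 stood first in both lines, at 442 CPM per kb in WT and 428 in KO, and BST2 stood next at 375 and 369. CMPK2 came last in both, at 6.47 and 6.0015 CPM per kb. The replicate ranges of neighbours in this order did not overlap, except RSAD2, IFI44L and EPSTI1 in WT at day 26 and several genes in the control groups.

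DAC raised all 10 genes in both lines at each day it was measured. In bulk RNA, more cells that express a gene and more RNA of it per cell cannot be told apart. In the WT line, 10 of 10 passed the edgeR quasi-likelihood test at an adjusted p below 0.05 on day 5, where 15.6% of the 22527 genes tested were called higher. The same count was reached on day 16 (background 18.6%) and on day 26 (18.7%). In the KO line the count was also 10 of 10 on day 5 (19.5%), day 16 (19.9%) and day 26 (26.3%). Median log2 changes of the 10 genes in WT were 2.74, 6.57 and 6.27 on the 3 days, against medians of 0.02, 0.03 and 0.03 over all genes tested. In KO, with RSAD2 entered at its lower bound, they were 3.29, 7.56 and 7.53. The 3 days and all treatments of a line share the same 2 control libraries. MX1, IFI6, IFI27, IFI44, IFI44L and BST2 were above the low-count threshold of 0.515 CPM in all 4 control libraries. MX2 was above it in 2, EPSTI1 in 1, and RSAD2 and CMPK2 in none; these last 2 entered the test through treated groups, so their calls add no support. Calls of these DAC comparisons held in each alternative setting and with any single library left out.

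**Figure D1:**
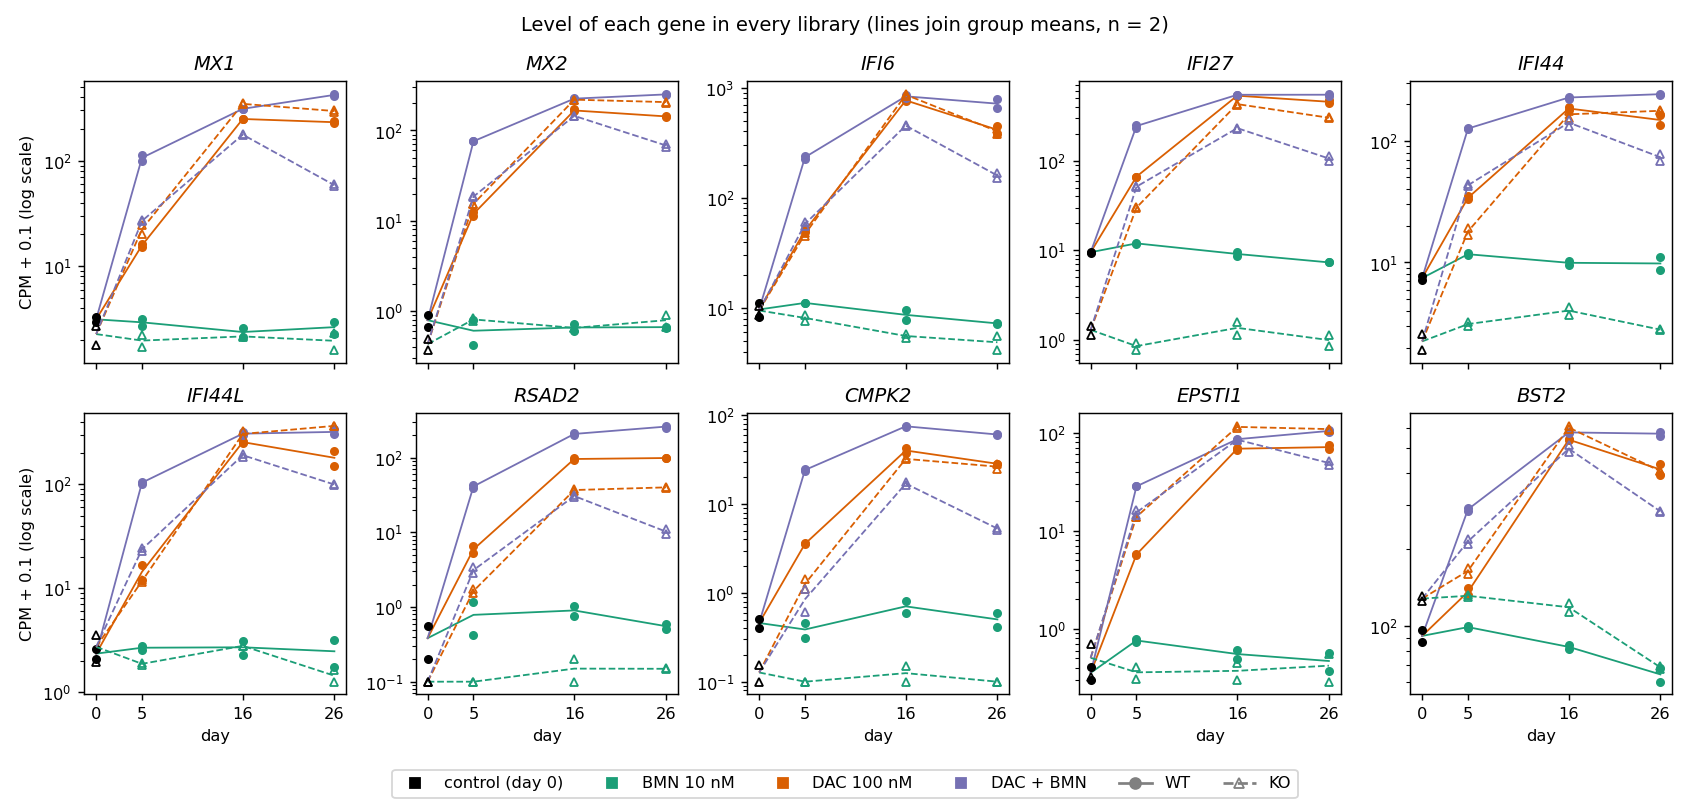
Level of each gene in all 40 libraries, as CPM plus 0.1 on a log scale, against the day of sampling. Filled circles are WT and open triangles KO libraries, colours are treatments, and lines join group means (n = 2); DAC and combination libraries rise from day 5 to day 16 in every panel, while BMN libraries stay near the day 0 level, and by day 26 the KO combination lies below KO DAC.

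The MX genes showed the size of these changes. MX1 was at 2.87 and 3.21 CPM in the WT control libraries. It was at 16.2 and 15.1 CPM on day 5 of DAC, at 249.4 and 247 CPM on day 16, and at 226 and 237 CPM on day 26. No DAC library overlapped the controls, and the folds were 5.14, 81.6 and 76.0 (log2 2.36 ± 0.14, 6.35 ± 0.12 and 6.25 ± 0.12, SE). In KO cells MX1 went from 2.64 and 1.71 CPM to 24.6 and 20.1 CPM, then to 341 and 349.6 CPM, and to 289 and 302 CPM. Those changes were 10.2-fold, 158-fold and 135-fold. MX2 began lower, at 0.806 and 0.570 CPM in WT and 0.270 and 0.386 CPM in KO control libraries. On day 16 of DAC it was at 171 and 162 CPM in WT and 219 and 219.5 CPM in KO, 239-fold and 658-fold above control. MX2 lies 10626 bases from MX1 on the same strand of chromosome 21, MX2 at 41361999-41409393 and MX1 at 41420020-41470071.

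Of the related genes IFI6 and IFI27, IFI6 began at a like level in both lines and IFI27 at a lower level in KO. IFI6, on chromosome 1 at 27666064-27672212, was at 8.26 and 10.9 CPM in WT and 8.47 and 10.3 CPM in KO control libraries, which overlap. On day 16 of DAC it reached 779 and 753 CPM in WT and 845 and 878 CPM in KO, 79.9-fold and 91.8-fold above control. By day 26 it had fallen back to 376 and 452 CPM in WT and 379 and 423 CPM in KO. A noncoding gene on the same strand, LINC02574, overlaps IFI6, but it held 1614 counts over all libraries against 202757 for IFI6. IFI27, on chromosome 14 at 94104836-94116698, was at 9.57 and 9.32 CPM in WT and at 1.35 and 1.05 CPM in KO control libraries. With DAC it rose in WT to 534 and 532 CPM on day 16, 56.4-fold, and in KO to 433 and 425 CPM, 356-fold.

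IFI44L and IFI44 lie 3650 bases apart on the plus strand of chromosome 1, at 78619902-78646145 and 78649796-78664078. IFI44 was at 7.61 and 7.10 CPM in WT and at 2.48 and 1.82 CPM in KO control libraries. On day 26 of DAC it was at 162 and 134 CPM in WT, 20.1-fold above control, and at 178 and 174 CPM in KO, 81.5-fold. IFI44L began at 2.52 and 1.97 CPM in WT and 1.83 and 3.42 CPM in KO. On day 26 of DAC it was at 208 and 151 CPM in WT and at 365 and 363 CPM in KO, 79.6-fold and 139-fold above control.

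RSAD2 and CMPK2 were nearly absent without DAC. RSAD2, on chromosome 2 at 6865557-6898239, was at 0.101 and 0.466 CPM in WT control libraries (11 counts) and at 0 counts in both KO control libraries. In WT it was at 5.28 and 6.41 CPM on day 5 of DAC, at 94.3 and 98.4 CPM on day 16, and at 100.3 and 98.3 CPM on day 26, 20.4-fold, 335-fold and 346-fold above control. In KO it was at 1.43 and 1.65 CPM on day 5, 38.2 and 35.7 CPM on day 16, and 40.7 and 39.5 CPM on day 26. Against a floor of 3 counts in each KO control library, these levels were at least 9.42-fold, 226-fold and 245-fold higher. CMPK2, at 6840570-6866635, had 14 counts in the WT and 1 count in the KO control libraries. It was at 42.4 and 37.9 CPM in WT on day 16 of DAC and at 32.8 and 31.8 CPM in KO. The KO ratio to control was 1183 with a 95% exact counting interval of 212 to 46760, which covers counting error only. Counting used strand, per the file headers, so reads of this opposite-strand pair are told apart as far as the kit keeps strand.

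EPSTI1 began at a low level and BST2 at a high one. EPSTI1, on chromosome 13 at 42886388-42992271, was at 0.202 and 0.311 CPM in WT and at 0.594 and 0.220 CPM in KO control libraries. On day 5 of DAC it was at 5.69 and 5.57 CPM in WT and at 13.7 and 13.8 CPM in KO, 21.5-fold and 33.2-fold above control. On day 26 it reached 74.2 and 67.9 CPM in WT and 107 and 110.0 CPM in KO. BST2, on chromosome 19 at 17402939-17405630, was already at 86.2 and 96.3 CPM in WT and 125 and 131 CPM in KO control libraries. It had the smallest fold of the 10 genes in each DAC comparison with control. On day 5 of DAC it was at 140.4 and 132 CPM in WT, 1.49-fold above control, and at 161 and 169 CPM in KO, 1.29-fold. On day 16 it was at 542 and 539 CPM in WT and 614 and 593 CPM in KO, 5.93-fold and 4.71-fold.

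BMN alone left most of the genes near the control level. In WT on day 5, IFI44 was the 1 gene called higher, against a background of 0.146% of genes tested. It was at 11.9 and 11.3 CPM, 1.57-fold above control (edgeR adjusted p = 0.0134). That call was lost whichever of the 4 libraries was left out. On day 16 in WT edgeR called 0 of 10 higher or lower (backgrounds 0.257% and 0.426%), with 4 genes at an unadjusted p below 0.05 and 1 call by DESeq2. On day 26 in WT, IFI44 was called higher (background 12.0%), and IFI6, IFI27 and BST2 were called lower (11.0%). BST2 was at 60.2 and 68.5 CPM there, 1.42-fold below control. All 4 of these day 26 calls were lost when the libraries of this comparison were fitted alone, the IFI44 call also without BMN replicate 1 or either control library, and the IFI6 call also without either BMN library or control replicate 2. In KO on day 5 edgeR called 0 of the 10 genes (backgrounds 5.07% higher and 6.65% lower), with 2 at an unadjusted p below 0.05 and 0 calls by DESeq2. On day 16 IFI44 was called higher (10.3%), a call lost without KO control replicate 2, and IFI6 lower (15.2%). On day 26 IFI6, IFI44L and BST2 were called lower (17.5%). BST2 was then at 67.6 and 69.6 CPM, 1.87-fold below the KO control, and IFI44L lost its call without KO BMN replicate 2 or KO control replicate 2. From day 5 to day 26 of BMN, IFI6, IFI27 and BST2 fell in WT (background 10.3%), and IFI6 and BST2 fell in KO (9.38%), where IFI6 was not called without KO BMN day 26 replicate 1.

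Set against BMN over the 3 matched days, DAC gave higher levels of 10 of 10 genes in WT, where 23.3% of genes tested were called higher, and of 10 of 10 in KO, where 28.5% were. BST2 had the smallest difference in both, 3.87-fold in WT and 3.36-fold in KO. MX2 had the largest in WT, 121-fold. RSAD2 and CMPK2 were above the low-count threshold in only 3 and 1 of the control and BMN libraries. CMPK2 entered this test through groups with DAC, so its calls here add no support either. For RSAD2 the libraries above the threshold were WT BMN ones, and each KO BMN library held 0 to 2 counts of it. Its calls here are therefore not used as support.

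**Figure D2:**
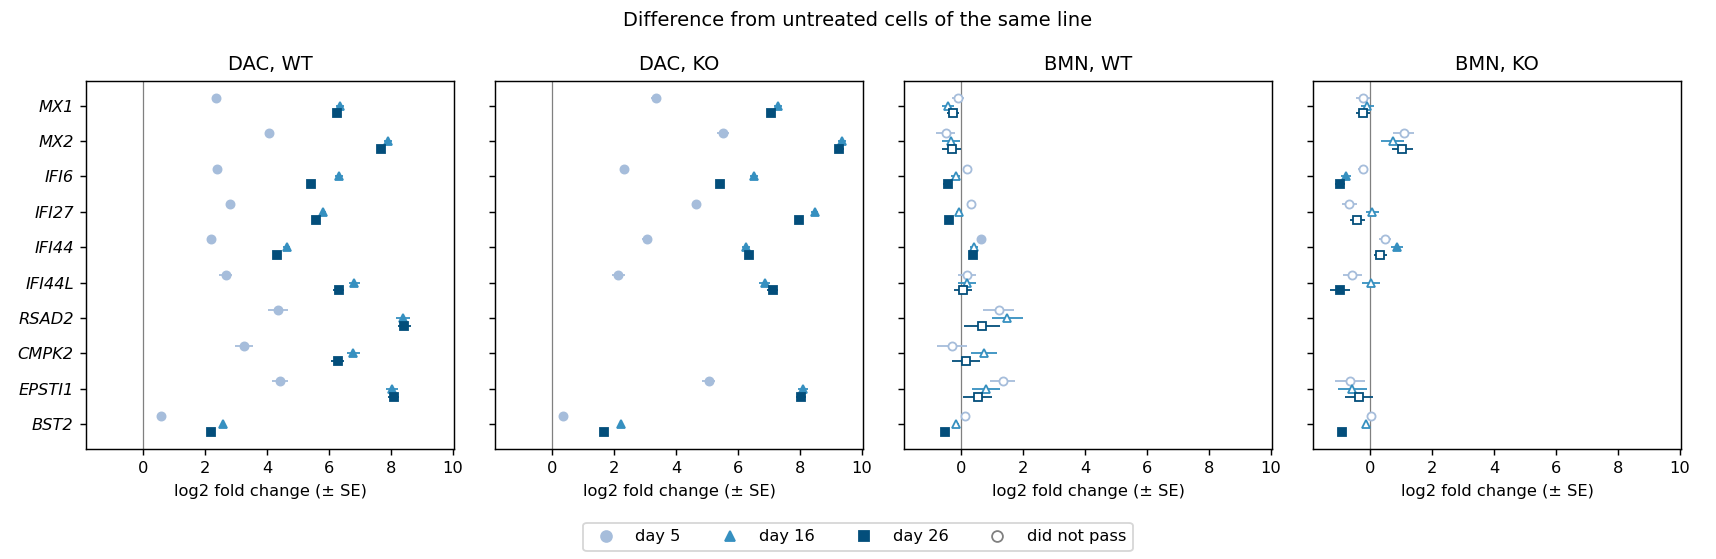
Log2 change of each gene against the untreated control of its line, for DAC and BMN in each line, with bars of 1 SE and colours for days 5, 16 and 26. Filled points passed the test and open points did not. RSAD2 and CMPK2 are left out of the KO panels because their KO controls held 0 and 1 counts. Points in the DAC panels lie to the right of 0 throughout, while those in the BMN panels lie around 0.

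With both drugs together all 10 genes were again above control, in WT on days 5 (background 21.2%), 16 (22.8%) and 26 (22.4%), and in KO on days 5 (27.1%), 16 (23.1%) and 26 (20.4%). As with DAC, RSAD2 and CMPK2 entered this test through treated groups, so their calls against control add no support. The question of the combination is how it compares with DAC on the same day, and here the lines differed. In WT on day 5, 10 of 10 genes were higher with the combination than with DAC, against 6.77% of genes tested. Their median log2 difference was 2.51, against -0.01 over all genes. On day 16, 6 of 10 were higher (5.04%), and on day 26, 10 of 10 were (5.07%) with a median of 0.80. In KO, 7 of 10 were higher on day 5 (10.5%), but 8 of 10 were lower on day 16 (8.70%) and 10 of 10 lower on day 26 (11.3%), with a median of -1.56.

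MX1 and RSAD2 were on opposite sides of DAC in the lines by day 26. In WT MX1 was at 114 and 98.9 CPM with the combination on day 5, 6.80-fold above DAC on that day (log2 2.76 ± 0.10 SE, edgeR adjusted p = 1.16e-20). It reached 410.5 and 430.0 CPM on day 26, 1.82-fold above DAC. In KO it was at 27.0 and 26.5 CPM on day 5, where the difference from DAC did not pass (log2 0.26 ± 0.10 SE, edgeR adjusted p = 0.0602). On day 26 it was at 57.0 and 59.99 CPM, 5.05-fold below DAC (log2 -2.34 ± 0.09 SE, edgeR adjusted p = 3.37e-19). In WT RSAD2 was at 43.1 and 39.5 CPM on day 5, 204 and 214 CPM on day 16, and 255 and 269 CPM on day 26, which was 7.04-fold, 2.17-fold and 2.64-fold above DAC. In KO it was at 2.76 and 3.29 CPM on day 5, 29.8 and 31.5 CPM on day 16, and 9.30 and 11.1 CPM on day 26. The last of these was 3.94-fold below DAC, with no overlap between the libraries.

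Other genes differed in degree. In WT on day 5, IFI44L and CMPK2 were 7.22-fold and 6.94-fold above DAC, and BST2 2.11-fold, the smallest of the 10. Of the 6 called in WT on day 16, MX1, IFI44 and EPSTI1 lost their call when WT DAC replicate 1 was left out, which left 3; RSAD2, CMPK2 and MX2 held with each library left out. IFI6 on that day was at 858 and 809.8 CPM against 779 and 753 CPM with DAC (edgeR adjusted p = 0.482). IFI27 had the smallest called difference in WT on day 26, 1.20-fold, a call lost without WT DAC replicate 1. In KO on day 5, IFI44 was 2.40-fold and IFI44L 2.03-fold above DAC. The calls of MX2 and IFI6 there were lost whichever of the 4 compared libraries was left out. MX2 lost its call also without the low-count filter and with the compared libraries fitted alone. RSAD2 lost its call without KO combination replicate 2 or KO DAC replicate 1. Without KO combination replicate 2, 4 calls were left. CMPK2 was at 0.995 and 0.502 CPM in these libraries against 1.32 and 1.01 CPM with DAC (edgeR adjusted p = 0.192). In KO on day 16, MX1 was 1.96-fold and IFI6 1.91-fold below DAC, while IFI44 and RSAD2 did not pass; BST2 was 1.21-fold below, a call lost without KO combination replicate 2. On day 26 CMPK2 was 5.05-fold and IFI44L 3.67-fold below DAC, and BST2 1.44-fold.

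The difference between the lines in this step from DAC to the combination was tested itself, in a comparison added after the values were seen. It was negative, with KO below WT, and passed for 10 of 10 genes on day 5 (background 4.68% of genes tested), on day 16 (3.19%) and on day 26 (9.51%). Median log2 differences were -1.88, -0.99 and -2.27, against 0.00, 0.01 and -0.01 over all genes. The day 26 values ran from -0.99 for BST2 to -3.44 for CMPK2.

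**Figure D3:**
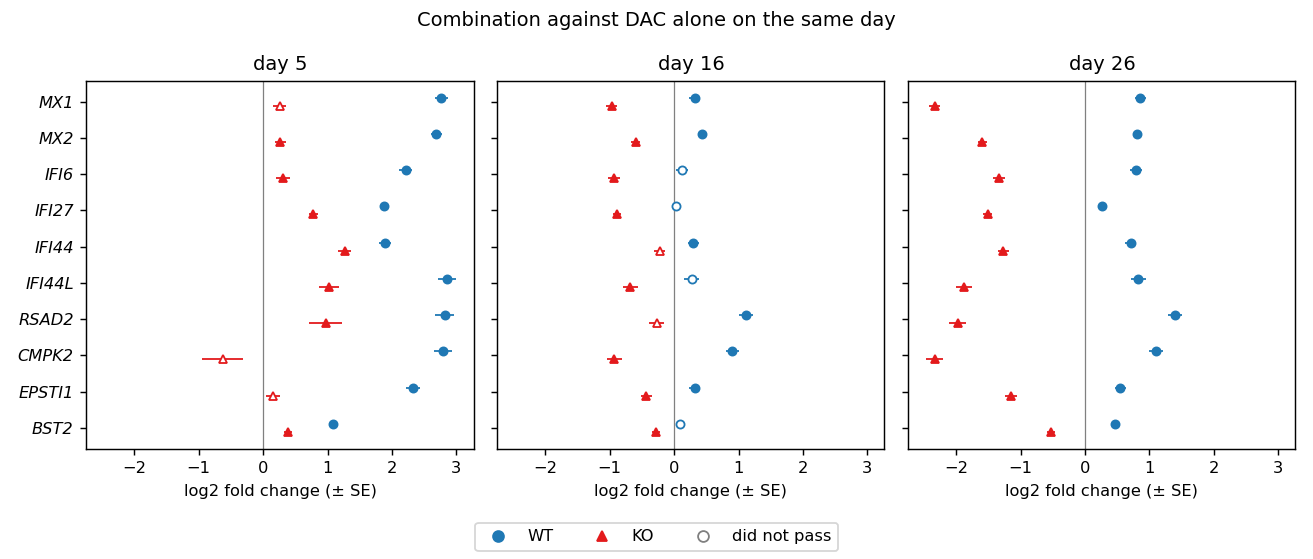
Log2 difference of the combination from DAC on the same day for each gene, one panel per day, with WT and KO in separate colours and bars of 1 SE. Filled points passed the test and open points did not; WT points lie to the right of 0 on each day, and KO points move to the left of 0 on days 16 and 26.

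Over time, the rise with DAC came mostly between days 5 and 16. All 10 genes were higher on day 16 than on day 5 in WT (background 7.93%) and in KO (8.29%), and with the combination in WT (13.1%) and in KO (16.8%). The median log2 steps were 3.71 and 3.90 with DAC, and 1.57 and 2.84 with the combination. From day 16 to day 26 of DAC, 7 genes fell in WT (background 8.55%) and 4 in KO (12.4%). IFI6 had the largest fall of these in both lines, 1.85-fold in WT and 2.15-fold in KO. EPSTI1 was at 74.2 and 67.9 CPM on day 26 in WT against 66.5 and 70.4 CPM on day 16, and did not pass. The WT falls of MX2, IFI27 and IFI44 and the KO fall of MX1 were lost when single libraries were left out: without WT DAC day 16 replicate 1 or day 26 replicate 1 for MX2 and IFI27, without replicate 2 of either day for IFI44, and without KO day 16 replicate 2 or either day 26 library for MX1. The WT fall of IFI44L was lost without day 26 replicate 2. With the combination in WT, MX1, RSAD2 and EPSTI1 rose further from day 16 to day 26 (background 14.3%) and CMPK2 fell (11.4%), but the calls of RSAD2, EPSTI1 and CMPK2 were lost without WT combination day 16 replicate 1 or replicate 2. In KO 10 of 10 fell (background 10.3%), by 1.73-fold for EPSTI1 to 3.25-fold for CMPK2, with a median log2 step of -1.11.

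The sum of the 10 genes shows both courses. In WT it was 118 and 131 CPM in control, 2145 and 2221 CPM on day 26 of DAC, and 3430.3 and 3549.8 CPM with the combination. In KO it was 143 and 150.0 CPM in control, 2291 and 2361 CPM on day 26 of DAC, and 899 and 922 CPM with the combination. BST2 made up most of the sum in the control groups.

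Between the untreated lines, 1 gene was higher in KO (background 13.4% of genes tested) and 4 were lower (13.9%). BST2 was the higher one, 1.40-fold. IFI27 was 7.84-fold and IFI44 3.41-fold lower in KO, with no overlap between libraries. RSAD2 and CMPK2 were also called lower, on 0 against 11 counts and 1 against 14 counts. For RSAD2 the WT level was at least 1.73-fold above the KO floor, and for CMPK2 the ratio of WT to KO was 13.1 with an exact counting interval of 1.99 to 555. The CMPK2 call was lost without KO control replicate 2.

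Under treatment the order of the lines depended on the drug. With DAC, averaged over the 3 days, 5 genes were higher in KO (background 23.4%) and 4 lower (25.7%). EPSTI1, MX1, MX2, IFI44L and BST2 were higher, EPSTI1 most at 1.84-fold. RSAD2, IFI27, CMPK2 and IFI44 were lower, RSAD2 most at 2.90-fold. With BMN, 1 gene, BST2, was higher in KO (background 21.3%) and 8 were lower (26.8%), IFI27 9.59-fold. RSAD2 and CMPK2 were among these 8, at the floor of counting. The KO BMN groups held 0 counts of RSAD2 on day 5 and 0 counts of CMPK2 on days 5 and 26. The BMN calls of MX1, IFI44L and EPSTI1 were each lost with at least one library left out, MX1 without WT BMN day 26 replicate 2. IFI44L lost its call in 12 of the alternative settings, among them RLE and upper quartile scaling. EPSTI1 lost its call in 8, among them the fit of the compared libraries alone. With the combination, 10 of 10 were lower in KO (25.6%), with a median log2 difference of -1.60 and a range from 1.46-fold for BST2 to 13.4-fold for RSAD2.

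The response to each drug, treated minus control, was also compared between the lines. For DAC, 4 genes had a larger response in KO (background 3.66% of genes tested) and 1 a smaller one (5.17%). Among these called genes IFI27 had the largest difference, log2 2.29 ± 0.16 SE (edgeR adjusted p = 1.13e-12), and MX2 and IFI44 the next, 1.49 ± 0.34 and 1.49 ± 0.19. MX1 also had a larger response and BST2 a smaller one. RSAD2 and CMPK2, with 0 and 1 counts in the KO control, did not pass. The MX1 call was lost without KO control replicate 2, MX2 without either KO control library or WT control replicate 1, and BST2 without WT control replicate 1. IFI27 and IFI44 had lower KO control levels than WT, as given above, and their response is measured from those levels. For BMN edgeR's quasi-likelihood test called 0 of the 10 genes (backgrounds 0.124% and 1.10%), with 3 at an unadjusted p below 0.05 and 0 calls by DESeq2. For the combination, IFI27 had a larger response in KO (7.25%), and MX1, IFI6, IFI44L and BST2 a smaller one (6.95%).

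**Figure D4:**
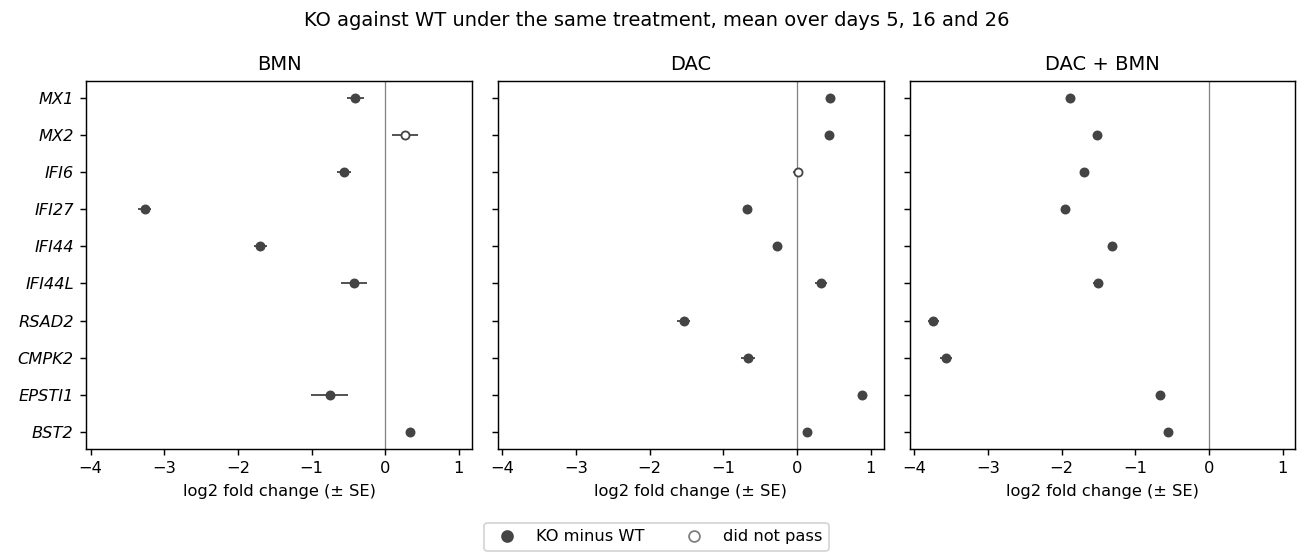
Log2 difference of KO from WT for each gene within each treatment, averaged over days, with bars of 1 SE. Filled points passed the test and open points did not. RSAD2 and CMPK2 are left out of the BMN panel. With the combination all 10 points lie to the left of 0, while with DAC they lie on both sides.

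Other genes of the interferon pathway were counted from a list of 52, of which 45 were tested. On day 5 of DAC 33 were higher in WT (background 15.6%) and 31 in KO (19.5%). All 20 other effectors were higher with DAC on day 5 in both lines. OAS2 and OASL, the first an enzyme that double-stranded RNA activates and the second its relative, changed most: OAS2 by log2 6.69 ± 0.27 SE in WT and 5.25 ± 0.27 in KO, and OASL by 3.12 ± 0.17 and 4.93 ± 0.39. OAS2 had 4 counts in the WT and 7 in the KO control, and OASL had 2 and 3 counts in the KO control libraries, so these sizes are imprecise. At this control level OAS2 entered the test through treated groups, so its calls add no support. JAK1, the receptor kinase, and MAVS, the adaptor of the RNA sensors, fell on day 5 in both lines, JAK1 by 0.60 and 0.44 and MAVS by 0.36 and 0.52. TLR3 and PIAS1 fell in KO, by 0.55 and 0.28. Of 8 interferon ligands 1, IFNE, was tested. IFNB1 and IFNL1, which encode a type I and a type III interferon, held at most 7 and 9 counts in any library, and 0 in all control and BMN libraries.

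In the step from DAC to the combination the 20 other effectors counted as follows. In WT 20 were higher on day 5 (background 6.77%), 12 on day 16 (5.04%) and 18 on day 26 (5.07%). In KO 13 were higher on day 5 (10.5%), 13 lower on day 16 (8.70%), and 20 lower on day 26 (11.3%), with a median log2 difference of -1.01 on the last day. The 10 genes of this set had -1.56 on that day.

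Likeness across the 20 groups is a description of group means from the same libraries, and most of it follows the gap between DAC-treated and other groups. Outside the 10 genes, those most like their mean pattern were IFIT1, PLSCR1, OAS2, DDX60, PARP9 and IFIT3, with Pearson r from 0.994 to 0.989 among 14840 genes with at least 1 CPM on average. Within the set, MX1 and IFI6 were most alike at 0.994, MX2 was most like MX1 at 0.992, and RSAD2 was most like CMPK2 at 0.990. The least alike pair was IFI27 and BST2 at 0.874.

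The nearest tested genes on either side, 15 distinct ones, were compared in DAC against control on day 26. In WT 8 were higher, where 18.7% of all genes tested were, and 1 was lower. In KO 9 were higher, against 26.3% of all genes, and 1 was lower. At least 2-fold higher in both lines were FAM3B, LINC00479, NRIR, LINC02341, CCDC194 and BISPR. In WT control FAM3B, NRIR and LINC02341 averaged 0 CPM, and LINC00479 averaged less than the low-count threshold of 0.515 CPM. FAM3B, NRIR and LINC00479 also averaged less than it in KO control. Genes this low in control entered the test through other groups, so these calls add no support. NRIR, a noncoding gene 105 bases from CMPK2, was at 0 counts in both controls and averaged 0.230 CPM in WT and 0.236 CPM in KO with DAC. BISPR, a noncoding gene 55 bases from BST2, averaged 6.78 CPM in WT and 7.27 CPM in KO control, and with DAC 13.9 and 19.6 CPM, log2 changes of 1.04 and 1.43. IFI27L1, 989 bases from IFI27, was at 7.24 and 7.31 CPM on average in WT control and DAC, and did not pass in either line.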

How the data were processed

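The deposited values are raw counts per gene, per the file headers made with featureCounts 1.5.0-p1, counting strand 1, primary alignments with a mapping quality of at least 20, over Ensembl 104 gene models of GRCh38. Per the submitters' processing notes FastQC, Trimmomatic and Partek were also used; per the labels libraries were made from total RNA with a KAPA RNA HyperPrep kit. The aligner's settings are not given in the sources used here. Groups were taken from the sample titles, and all 40 count columns were matched to a sample by their names.

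Genes with enough counts in the smallest group size (filterByExpr of edgeR 4.0.16 over 20 groups; threshold 0.515 CPM) were kept, which left 22527 of 60664. Library sizes were scaled by TMM, and CPM use them. A single quasi-likelihood fit covered all 40 libraries, each group having its own mean, and each comparison was tested with Benjamini-Hochberg adjustment over all genes tested at 0.05. A total of 43 comparisons were set by the design and 3 were added after values were seen. Errors of log2 changes are standard errors derived from the F statistic; folds come from the fit. Where a group held 0 counts, folds are bounds against a floor of 3 counts per library, 0.133 to 0.171 CPM. The scripts were tested on simulated data with known changes. Alternatives were RLE and upper quartile scaling, DESeq2 1.42.0, other low-count filters, fits of the compared libraries alone, a replicate block, and each library left out; their effect is given in the closing section. Replicates differed beyond counting error in every group (chi-square per gene 1.66 to 19.6). Replicate numbers did not pair the libraries.

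The 10 genes, the pathway list and the marker lists were chosen with earlier results of these data known. The 10 genes are always named. Pathway genes are named if they had the 2 largest changes on day 5 of DAC in a line or fell there, and neighbours if called at least 2-fold. The most alike genes are the 6 with the highest Pearson r. Of the pathway genes that this rule names, 1 is not reported here. IFNB1, IFNL1, IFI27L1 and the marker genes were named after their values were seen. Promoter windows are from RefSeq on GRCh38.p14 and were matched by symbol. Figures were drawn with matplotlib; the level plot adds 0.1 CPM.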

Additional observations from a re-analysis of the deposited data

Results flagged for a closer look

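Every value here is a log2 difference between the lines, KO minus WT, that passed the edgeR quasi-likelihood test of that difference in the main fit. For the response to DAC over the 3 days the differences were 0.93 for MX1, 1.49 for MX2, 2.29 for IFI27, 1.49 for IFI44 and -0.35 for BST2. For the response to the combination they were -1.40 for MX1, -1.66 for IFI6, 1.02 for IFI27, -1.72 for IFI44L and -1.04 for BST2. The calls of MX1, MX2 and BST2 in the response to DAC were each lost when a single control library was left out, as given above.

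For the step from DAC to the combination all 10 genes passed on each day, in a comparison added after the values were seen. On day 5 the differences were -2.50 for MX1, -2.42 for MX2, -1.91 for IFI6, -1.10 for IFI27, -0.63 for IFI44, -1.83 for IFI44L, -1.85 for RSAD2, -3.43 for CMPK2, -2.18 for EPSTI1 and -0.69 for BST2. On day 16 they were -1.29 for MX1, -1.03 for MX2, -1.05 for IFI6, -0.92 for IFI27, -0.53 for IFI44, -0.95 for IFI44L, -1.38 for RSAD2, -1.84 for CMPK2, -0.76 for EPSTI1 and -0.37 for BST2. On day 26 they were -3.20 for MX1, -2.41 for MX2, -2.12 for IFI6, -1.77 for IFI27, -1.97 for IFI44, -2.70 for IFI44L, -3.38 for RSAD2, -3.44 for CMPK2, -1.70 for EPSTI1 and -0.99 for BST2. The 3 days use separate libraries, and no untreated library enters these differences. The IFI44 and BST2 values on day 16 are the smallest of that day, and the BST2 call there was lost without KO combination replicate 2.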

How the results depend on the processing

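Of 4571 alternative values for 362 gene results, 4438 kept their direction and side of the threshold, 95 lost the call and 26 gained it. Another 12 changed sign, all for genes that had not passed. Of 55 counts of called genes, 38 stayed within 1.5 times under every setting run. The compared libraries fitted alone lost 11 calls, leaving out a library 77, and DESeq2 and the replicate block 0 each. Calls of DAC and of the combination against control held in each setting run.

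Replicate numbers do not pair the libraries: over 190 pairs the correlation of same-numbered deviations ran from -0.174 to 0.237, with 10 over 0.1. With the replicate block, 2 genes in place of 1 fell from day 16 to day 26 of the combination in WT, and it moved no other count beyond 1.5 times. Upper quartile scaling also gave 2 there.

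For BMN in WT on day 16, DESeq2 called 1 gene higher and a fit without the low-count filter 2. With the compared libraries alone, BMN in WT gave 0 higher on day 5, and 0 higher and 0 lower on day 26. The same fits gave 2 lower in KO between untreated lines, and from day 16 to day 26 of DAC 1 higher in KO and 4 lower in WT. The line difference in the BMN response gave 1 lower without the filter. The cause of these shifts was not tested.

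With each library left out in turn, BMN in WT gave 0 higher on day 5, 0 to 1 lower on day 16 and 0 to 1 higher on day 26, and BMN in KO gave 0 to 1 higher on day 16. From day 5 to day 26 of BMN in KO, 1 to 2 fell. The combination against DAC gave 4 to 5 higher in KO on day 5 and 3 to 5 in WT on day 16. From day 16 to day 26 of the combination in WT, 1 to 2 rose and 0 to 1 fell. The line difference in response gave 2 to 4 higher and 0 to 1 lower for DAC, and 0 to 1 lower for BMN.

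Sign changes among genes that had not passed came mainly from leaving out a library. Between untreated lines the log2 values then ran from -0.21 to 1.21 for EPSTI1, from -0.28 to 0.60 for IFI44L and from -0.22 to 0.22 for IFI6, with 0.11 without KO control replicate 1. From day 16 to day 26 of the combination in WT they ran from -0.0485 to 0.0144 for BST2, from -0.0281 to 0.0312 for IFI27 and from -0.023 to 0.13 for IFI44L. For IFI27, the compared libraries alone gave -0.0012, upper quartile scaling -0.0153 and a fit without combination day 16 replicate 1 -0.0023. For DAC in that step they ran from -0.0286 to 0.13 for IFI44 in KO and from -0.0134 to 0.0881 for EPSTI1 in WT.

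Without division by length, 3 of 10 genes kept their place in the order of levels in WT control, 6 in KO control, 1 in WT and 3 in KO on day 26 of DAC. By Spearman's rho, 2 of the 6 most alike genes were shared with those named. Depth limits RSAD2, CMPK2, EPSTI1 and MX2 in control and BMN groups, where a library held few counts; 2 libraries per group limit every test.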
